A study of Mus musculus with 44 samples.

Results

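Cadherins are the transmembrane adhesion molecules that hold neighbouring cells together, and 9 cadherin genes (Cdh1, Cdh2, Cdh3, Cdh4, Cdh6, Cdh11, Cdh13, Cdh16 and Cdh17) were followed through the formation of the mouse gut from embryonic and extraembryonic cells. The members were taken by gene name from the 32287 gene identifiers quantified in each library, and each name matched 1 identifier. RNA was measured in 44 low-input poly(A) libraries of two-colour lineage-traced embryos, made by aggregating mCherry+ morulae (CD1/G4) with GFP+ mouse embryonic stem cells (G4), a clonal line. The study's methods call the stem cell background F1G4 and state that the mCherry+ colony behind the morulae was kept by mating to C57BL/6J females. Embryonic cells are therefore GFP+ and extraembryonic cells mCherry+, so that origin cannot be told apart from the donor line or its reporter in any comparison. At E6.5 the groups were epiblast (Epi), distal extraembryonic endoderm (exEndo1) and proximal extraembryonic endoderm (exEndo2), all WT, isolated by hand from single embryos (n = 4 each). At E9.5 they were yolk sac endoderm (YsEndo), extraembryonic midgut and hindgut (exMidgut, exHindgut, together exGut) and embryonic midgut and hindgut (emMidgut, emHindgut, together emGut), all WT, sorted as EPCAM+ cells by reporter from pools of 4 embryos (n = 4 each). YsEndo and exGut cells were mCherry+, while emGut cells were positive for both reporters with a low mCherry signal, a population that the study's methods assign to the embryonic lineage. At E13.5 the lineage-traced embryos carried a CRISPR knockout of Trp53 in their extraembryonic cells. Their GFP+ colon and small intestine cells (emColon, emSI) are labelled WT and their mCherry+ cells (exColon, exSI) Trp53 KO, each sorted for EPCAM from single embryos (n = 3 each). The labels do not say which of these libraries share an embryo, and origin at E13.5 cannot be told apart from Trp53 genotype either.

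Classical cadherins bind the same cadherin on the neighbouring cell through their outer domains and bind catenins, which link them to actin, through their inner tail. Of the 9 members, 6 are classical: Cdh1 (E-cadherin, the main cadherin of epithelia), Cdh2 (N-cadherin, of neural and mesodermal cells), Cdh3 (P-cadherin) and Cdh4 (R-cadherin) are of type I, and Cdh6 (K-cadherin) and Cdh11 (OB-cadherin, of mesenchyme) of type II. The other 3 are not: Cdh13 (T-cadherin) is held in the membrane by a lipid anchor and has no catenin-binding tail, and Cdh16 (kidney cadherin) and Cdh17 (liver-intestine cadherin) have a longer outer part and a short tail. An exchange of E-cadherin for N-cadherin is known from gastrulation, when epiblast cells leave the epithelium, and Snail, Zeb and Twist factors are known repressors of Cdh1.

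The promoter of Cdh6 is shown because this gene was the only member matched (1 of 9) in the RefSeq promoter table (GRCm38.p6). Its levels also lay apart between exEndo1 and Epi at E6.5, which is a description only, and between the gut regions at E9.5. The 250 bases before its start lie on the minus strand at chr15:13173676-13173925, upstream of the first exon. They are printed 5′ to 3′ with each CpG dinucleotide, the unit of DNA methylation, in capitals:

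Cdh6: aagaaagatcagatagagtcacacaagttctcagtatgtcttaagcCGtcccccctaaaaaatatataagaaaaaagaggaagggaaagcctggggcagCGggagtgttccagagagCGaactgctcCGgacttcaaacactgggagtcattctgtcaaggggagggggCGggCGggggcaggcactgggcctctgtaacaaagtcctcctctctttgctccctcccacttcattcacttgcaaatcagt

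This stretch holds 6 CpGs, which is the median over the 32851 promoters of the same length in the table, and 50.4% of those promoters hold at least as many. Neither CACCTG nor its reverse complement CAGGTG, the E-box letters that Snail and Zeb factors are known to bind, occurs in it; 17.2% of all promoters hold this motif on either strand. These are descriptions of the sequence only, as the values below are RNA levels.

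Levels are given as TPM, a transcript abundance scaled for gene length and for the total of the library, so that members can be compared within a library. Labels were checked first. EGFP RNA was at least 180 TPM in every embryonic library and at most 15.9 TPM in every extraembryonic library, and mCherry RNA was at least 1731 TPM in the extraembryonic and at most 6.61 TPM in the embryonic libraries. Trp53 RNA was still present in the knockout groups, at 33.4 to 167 TPM against 151 to 245 TPM in the WT groups of that stage, and its level does not show whether the gene product was lost. Epcam was at 124 TPM or more in all libraries. Coverage times transcript length gave 3.53 to 12 Gb of aligned sequence per library, and 10382 to 13596 genes lay above 1 TPM.

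Some libraries held RNA of other cell types. In emMidgut, replicates 1 and 3 had summed germ cell marker levels (6 genes) of 330 and 308 TPM against 71.5 and 89.4 TPM in the other two, with Dppa3 at 224 and 183 TPM and listed at 0 in the others. In emSI, replicate 1 had a summed mesenchyme marker level (10 genes) of 458 TPM and replicate 2 of 130 TPM, against 1.93 TPM in replicate 3. In exColon the summed surface ectoderm marker level (7 genes, 5 above 1 TPM on average) was 15.9 to 185 TPM. It was 2.32 to 57.1 TPM in emColon and at most 2.46 TPM in exSI. The exColon libraries were left out only 1 at a time. Where leaving out these emMidgut or emSI libraries changed a call of a member, the change is stated. Other results are given with all libraries.

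Cdh1 was the basal cadherin of the series. It was present in all 44 libraries, at 44.5 to 167 TPM, and was the highest of the 9 members in 36 of them. Cdh2 was highest in 5 libraries and Cdh17 in 3. The summed level of the 9 genes ran from 58.4 to 264 TPM. By group mean the sum was lowest in exEndo2 (74.2 ± 13.9 TPM, SD, n = 4) and highest in exMidgut (243 ± 15.6) and emMidgut (236 ± 18.7).

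The share of Cdh1 in this sum differed widely between groups. It was 95.4% ± 1.25 (SD, n = 4) in YsEndo, where the other 8 members were nearly absent, and 28.1% ± 2.40 in emHindgut, where Cdh2 took 41.3% ± 4.12 and Cdh11 18.6% ± 2.85. In exHindgut Cdh1 took 43.7% ± 2.90, Cdh2 33.8% ± 6.89 and Cdh3 16.8% ± 6.65. Both midgut groups had 64% of Cdh1 (64.0% ± 3.62 and 64.3% ± 3.18 in emMidgut and exMidgut). At E13.5 Cdh17 joined Cdh1, with 43.2% ± 12.5 of the sum in exSI and 41.9% ± 9.06 in emSI (n = 3).

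**Figure D1:**
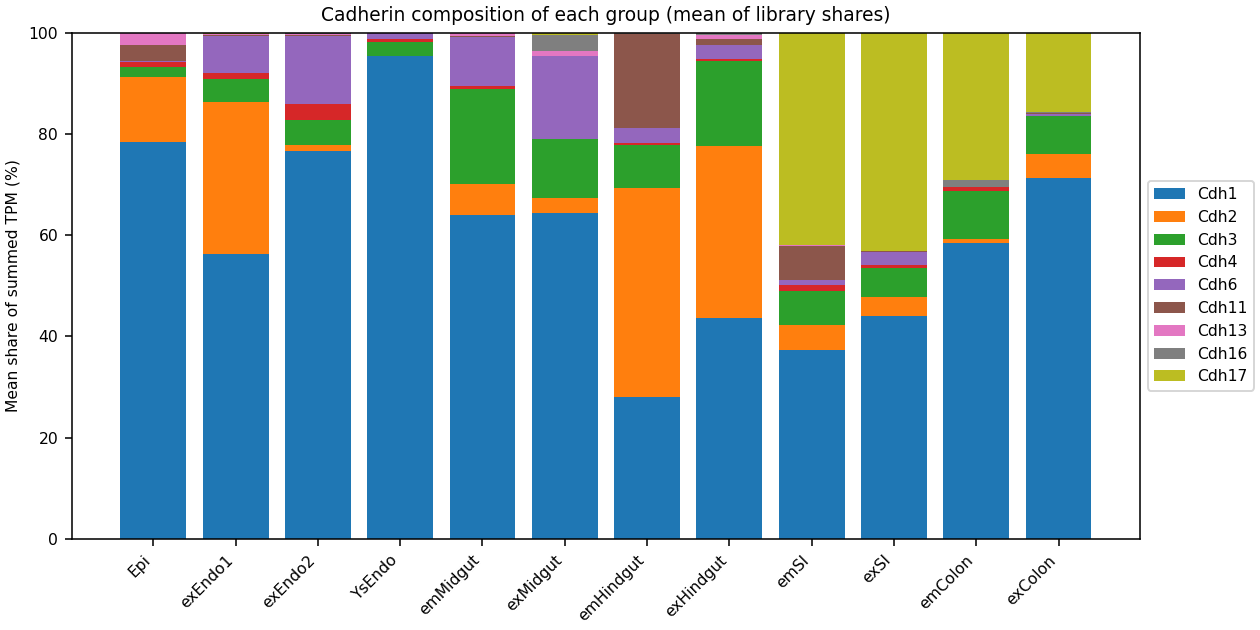
Stacked bars give, for each of the 12 groups (x axis), the mean over libraries of the share (percent, y axis) that each of the 9 genes takes of their summed TPM. Cdh1 fills 95.4% of the YsEndo bar and 28.1% of the emHindgut bar, and Cdh17 is wide in the 4 E13.5 groups alone.

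In the order of group means, neighbouring groups mostly overlapped. For Cdh3, Cdh6, Cdh13, Cdh16 and Cdh17 no pair of neighbours (0 of 11) was separate. For Cdh1, Cdh4 and Cdh11, 1 of the 11 pairs was separate, and for Cdh2, 3 of 11. The same count was not made over all genes, so that nothing particular to cadherins can be read from these numbers. Cdh13 was listed at 0 in 21 libraries and Cdh16 in 27, and no library had more than 3.72 TPM of Cdh4. A value of 0 may also be a failed estimate in these files, and such genes are given as listed at 0, without a fold.

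**Figure D2:**
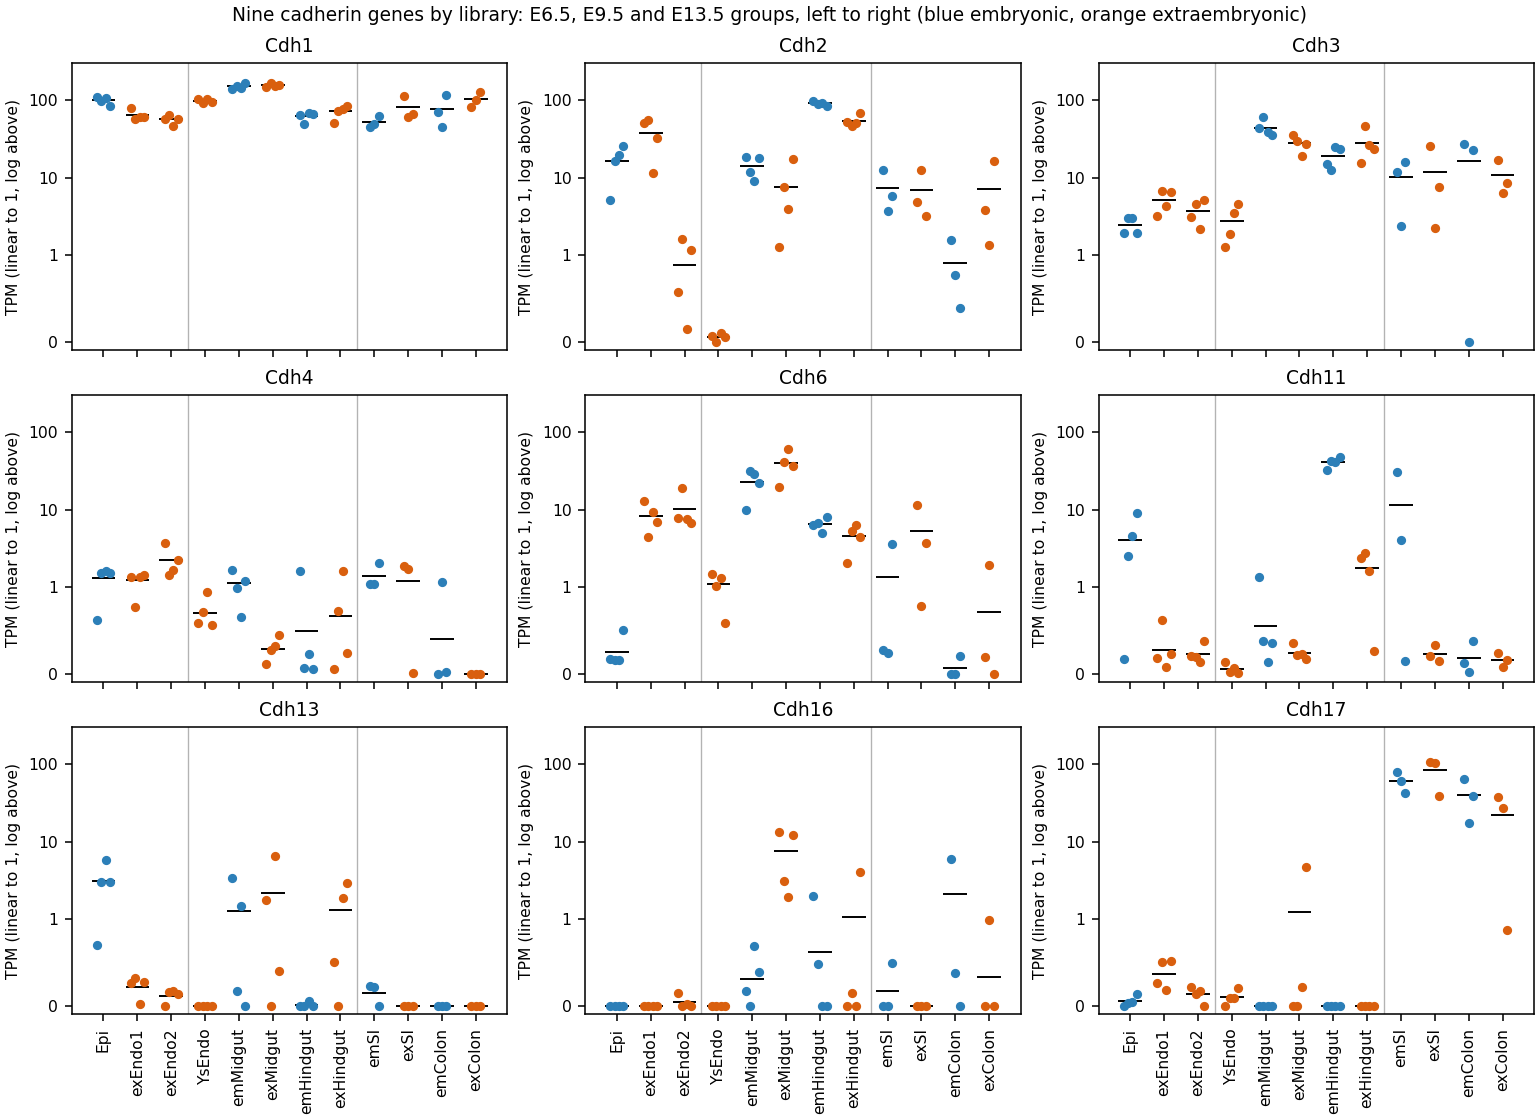
Each panel shows 1 gene, with a point for each library and a black line for the group mean (TPM on the y axis, linear up to 1 and logarithmic above); blue points are embryonic and orange points extraembryonic groups, with E6.5, E9.5 and E13.5 separated by grey lines. Cdh1 stays between 44.5 and 167 TPM, while Cdh2 runs from 0 in YsEndo to 98.6 TPM in emHindgut and Cdh17 rises at E13.5.

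The members lie on several chromosomes of the mm10 build (GENCODE vM21 positions, all protein-coding genes). Cdh3 (chr8:106510891-106557297) and Cdh1 (chr8:106603351-106670246) are neighbours on the plus strand with 46.1 kb between them. Cdh11 (chr8:102632095-102785642, minus strand), Cdh16 (chr8:104601911-104624396, minus) and Cdh13 (chr8:118283733-119324921, plus) are on the same chromosome. Cdh6 is at chr15:13028701-13173675 (minus), Cdh4 at chr2:179442431-179899373 (plus), Cdh17 at chr4:11758147-11817895 (plus) and Cdh2 at chr18:16588877-16809246 (minus).

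The first question was how the progenitors of the gut differ at E6.5. In exEndo1 against Epi, 1 of the 5 members tested was called, Cdh6, beside 33.4% of all 12057 genes tested. Calls required both an absolute log2 difference above 1 and an adjusted p below 0.05; tests were limma fits on log2(TPM + 1) over all genes above 1 TPM in at least 4 libraries (3 where the libraries were of E13.5 alone), with Benjamini-Hochberg adjustment over all of them, and differences are on that log2 scale. Cdh6 was at 12.9, 4.52, 9.30 and 7.02 TPM in the 4 exEndo1 libraries and at 0.174, 0.153, 0.158 and 0.502 TPM in the Epi libraries. The groups did not overlap, and the difference was 2.85 (SE 0.26, limma adjusted p = 2.82e-06). Cdh6 passed the filter on low values through its 4 exEndo1 libraries alone, and without any of these it was not tested. It therefore had to differ, and its call is given as a description. The median difference was 0.82 over the 5 members and 0.09 over all genes.

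Cdh1 was already strong in both progenitors. It was at 111, 97.3, 106 and 85.1 TPM in Epi and at 80.4, 56.9, 61.3 and 61.6 TPM in exEndo1. The ranges did not overlap, and the difference of -0.62 (SE 0.14, limma adjusted p = 0.00258) did not pass the fold threshold. Cdh3, at 3.26 to 6.74 TPM in exEndo1 and 1.92 to 3.06 TPM in Epi, differed by 0.82 (SE 0.23, limma adjusted p = 0.0086), again under the fold threshold. Cdh11 and Cdh13 were detected in Epi alone among the E6.5 groups above 1 TPM: Cdh11 was at 0.166, 2.57, 4.53 and 9.10 TPM and Cdh13 at 0.704, 3.04, 5.89 and 3.06 TPM in the 4 Epi libraries. Epi replicate 1, the lowest for both, was also lowest for Cdh2 (5.23 TPM against 16.4 to 25.5), for Snai1 (3.05 TPM against 13.2 to 23.3) and for summed notochord and tail bud markers (1.58 TPM against 29.5 to 58.3). Cdh11 and Cdh13 did not pass the filter on low values here. Without the filter both were called lower in exEndo1, by -1.63 (SE 0.57, limma adjusted p = 0.0489) and -1.62 (SE 0.37, limma adjusted p = 0.0073).

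The next question was how distal and proximal extraembryonic endoderm differ, of which the first contributes to the gut and the second to the yolk sac. Of the 5 members tested 1 was called, Cdh2, beside 6.41% of all 11414 genes. Cdh2 was at 50.5, 54.7, 11.4 and 32.6 TPM in exEndo1 and at 0.573, 1.62, 0.146 and 1.19 TPM in exEndo2. Every exEndo1 library lay above every exEndo2 library, with a difference of 4.21 (SE 0.44, limma adjusted p = 0.000122). The ratio of Cdh2 to Cdh1 was 0.577 ± 0.319 in exEndo1 and 0.0147 ± 0.0099 in exEndo2 (SD, n = 4), and 0.174 ± 0.103 in Epi. Cdh6 overlapped between the parts of the endoderm (exEndo2, 7.88, 19.2, 7.51 and 6.68 TPM), with a difference of -0.22 and a 95% interval of -0.97 to 0.53. Cdh1 likewise differed by 0.20 (95% interval -0.12 to 0.51). Cdh4, a low gene here, was at 0.767 to 1.43 TPM in exEndo1 and 1.44 to 3.72 TPM in exEndo2 and was not called (limma adjusted p = 0.199).

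At E9.5 the cadherins differed along the axis of the gut. In hindgut against midgut, with origin as a covariate, 4 of the 8 members tested were called beside 14.2% of all 13473 genes: Cdh2 and Cdh11 were higher, and Cdh1 and Cdh6 lower, in the hindgut. The median difference was -0.59 over the 8 members and -0.01 over all genes. For Cdh11 the difference was 2.925 (SE 0.49, limma adjusted p = 6.49e-05), but the regions overlapped. Its mean was 41.1 TPM in emHindgut and 1.77 TPM in exHindgut, where the lowest library (0.261 TPM) lay within the midgut range.

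Cdh1 was at 140, 154, 143 and 167 TPM in emMidgut and at 148, 166, 154 and 156 TPM in exMidgut. In the hindgut it was at 63.6, 49.5, 69.2 and 66.9 TPM in emHindgut and at 50.5, 72.7, 77.9 and 85.0 TPM in exHindgut. All 8 hindgut libraries lay below all 8 midgut libraries, with a difference of -1.21 (SE 0.11, limma adjusted p = 9.28e-09). In TPM the group mean was 2.42-fold higher in emMidgut than in emHindgut and 2.18-fold higher in exMidgut than in exHindgut. Epcam, an epithelial adhesion gene, moved with Cdh1, at 831 ± 48.6 TPM in emMidgut and 376 ± 44.2 TPM in emHindgut, and at 941 ± 86.9 and 548 ± 82.2 TPM in exMidgut and exHindgut (SD, n = 4). The sum of 7 endoderm and epithelium markers, Epcam included and all above 1 TPM on average in the 4 groups, moved the same way, from 5010 to 6128 TPM in emMidgut and 5287 to 6391 TPM in exMidgut to between 1919 and 2409 TPM in emHindgut and 2490 and 3330 TPM in exHindgut. The part of the epithelial share of cells in the Cdh1 difference was not tested.

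Cdh2 went the other way. It was at 98.6, 90.2, 92.2 and 83.4 TPM in emHindgut and at 52.4, 46.3, 50.3 and 67.3 TPM in exHindgut, against 18.7, 11.9, 9.10 and 17.9 TPM in emMidgut and 1.27, 7.64, 3.96 and 17.3 TPM in exMidgut. The difference was 2.85 (SE 0.29, limma adjusted p = 7.12e-08), with no overlap between regions. In emHindgut there was more Cdh2 than Cdh1 RNA in every library, with a ratio of 1.49 ± 0.256 (SD, n = 4), whereas in exHindgut the ratio was 0.778 ± 0.187, in emMidgut 0.0952 ± 0.0309 and in exMidgut 0.0479 ± 0.0448.

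Cdh6 followed Cdh1. It was at 9.81, 31.4, 29.1 and 22.1 TPM in emMidgut and at 19.7, 41.3, 61.4 and 37.0 TPM in exMidgut, and at 4.96 to 8.17 TPM in emHindgut and 2.08 to 6.38 TPM in exHindgut. The hindgut libraries all lay below the midgut libraries (difference -2.20, SE 0.30, limma adjusted p = 5.01e-06). Cdh3 was lower in emHindgut (12.7 to 24.8 TPM) than in emMidgut (35.5 to 59.9 TPM) and overlapped between exHindgut and exMidgut (15.6 to 46.2 and 19.1 to 35.5 TPM); its difference of -0.64 (SE 0.24, limma adjusted p = 0.0411) was under the fold threshold.

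Known repressors of Cdh1 were higher in the same hindgut libraries. Of the 8 genes on this list, all tested, 6 were called higher and 0 lower in the hindgut, beside 14.2% of all 13473 genes called. The median difference was 1.95, against -0.01 over all genes. Snai2 was listed at 0 in every midgut library, and Zeb2 was at most 0.0966 TPM there. Both passed the filter through hindgut libraries alone, so that they had to differ. Twist1, Twist2 and Zeb1 averaged at most 0.659 TPM in either midgut group. The count and the median are therefore given as a description. Snai1 was at 82.0, 97.3, 63.7 and 64.7 TPM in emHindgut and at 16.8, 14.3, 21.0 and 37.1 TPM in exHindgut, against 1.38 to 6.68 TPM in emMidgut and 0 to 5.40 TPM in exMidgut (difference 3.97, SE 0.36, limma adjusted p = 1.34e-08). Zeb2 was at 5.77 to 8.65 TPM in emHindgut and 0.82 to 5.40 TPM in exHindgut, and at most 0.0966 TPM in any midgut library (difference 2.34, SE 0.30, limma adjusted p = 3.11e-06). Notochord and tail bud markers (6 genes, all above 1 TPM on average in both hindgut groups) also moved with region, with summed levels of 468 to 594 TPM in emHindgut and 241 to 389 TPM in exHindgut against 73.2 to 164 TPM in the midgut groups. By group mean Snai1 was at 76.9 TPM in emHindgut and 22.3 TPM in exHindgut, and Cdh1 at 62.3 and 71.55 TPM. The part of the repressors, or of notochord and tail bud cells, in these cadherin differences was not tested. In bulk samples fewer cells of a type and less RNA per cell cannot be told apart.

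Of 14 catenins and other junction partners, 13 were tested and 0 were called in either direction by limma, with 5 at an unadjusted p under 0.05. Ctnnb1 (beta-catenin) was at 222 to 297 TPM in emHindgut and 239 to 310 TPM in emMidgut, and at 235 to 314 and 250 to 273 TPM in exHindgut and exMidgut. Among 12 epithelial transcription factors, 4 were called higher and 3 lower in the hindgut. Ovol2, a factor known to hold cells epithelial, fell by 2.32 on the log2 scale (SE 0.43, limma adjusted p = 0.000239) and Hnf4a by 3.32 (SE 0.39, limma adjusted p = 7.07e-07), while Ovol1 rose by 1.29 (SE 0.45, limma adjusted p = 0.0298) and Grhl1 by 1.27 (SE 0.33, limma adjusted p = 0.0045). Of the other cadherin superfamily genes 8 of 20 were tested and 1 was called, Dsc2 (desmocollin 2, of desmosomes), at 23.1 ± 4.39 TPM in the hindgut and 58.0 ± 8.42 TPM in the midgut (SD, n = 8). Of 5 cadherin proteases tested 0 were called by limma, with 2 at an unadjusted p under 0.05.

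A further question at E9.5 was how exGut differs from emGut. Over both regions together, 0 of the 8 members tested were called by limma beside 2.35% of all 13473 genes, although 2 of the 8 had an unadjusted p under 0.05, Cdh11 and Cdh16. Cdh1 differed by 0.11 (95% interval -0.51 to 0.74). Cdh11 differed by -2.15 (SE 0.85, limma adjusted p = 0.193) and, with region as a covariate, by -2.15 with SE 0.49 and adjusted p = 0.0061, which is a call. Each region was therefore taken by itself.

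In the hindgut, origin went with a large difference in Cdh11. It was at 32.8, 42.4, 41.5 and 47.6 TPM in the emHindgut libraries and at 2.41, 2.79, 1.61 and 0.261 TPM in the exHindgut libraries. The groups lay far apart, with a 23.2-fold ratio of mean TPM and a log2 difference of -4.03 (SE 0.35, limma adjusted p = 5.97e-06). It was the single member called among 5 tested, beside 3.07% of all 12318 genes. Cdh11 is on the list of axonogenesis genes that the study chose on these E9.5 libraries, so its direction here is not independent evidence. Cdh2 was lower in each exHindgut library than in any emHindgut library, by -0.75 (SE 0.15, limma adjusted p = 0.0082), under the fold threshold. Cdh1, Cdh3 and Cdh6 overlapped between origins, with differences of 0.18 (95% interval -0.19 to 0.56), 0.47 (-0.19 to 1.14) and -0.50 (-1.27 to 0.27).

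In both midgut groups Cdh11 was near 0, at 0.133 to 1.35 TPM in emMidgut and 0.169 to 0.359 TPM in exMidgut. The difference by origin was larger in the hindgut than in the midgut by -3.76 (SE 0.54, limma adjusted p = 0.00579 for the interaction). Cdh11 was the only 1 of 8 members called in this interaction, beside 0.0965% of all 13473 genes (13 genes). With a pseudocount of 0.1 the interaction was -4.17 and was not called (adjusted p = 0.208).

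The summed level of mesenchyme markers moved with Cdh11 in the hindgut. Of 10 such genes 8 averaged above 1 TPM in either hindgut group, none was at 0 in all libraries, and the sum was 54.1 to 72.7 TPM in emHindgut and 27.3 to 39.6 TPM in exHindgut. Col1a1, a collagen of mesenchyme, was at 2.51 to 5.88 TPM in emHindgut and 0.177 to 3.12 TPM in exHindgut, well under the Cdh11 level of emHindgut. Not every gene of the list went this way. Col3a1 averaged 0.236 TPM in emHindgut and 0.523 TPM in exHindgut, and Postn 4.68 and 4.08 TPM. In emMidgut the sum overlapped that of emHindgut, at 44.4 to 105 TPM, while Cdh11 was at 1.35 TPM or less. Postn took 19.8 to 86.1 TPM of it in emMidgut, against 0.527 to 10.3 TPM in emHindgut, and Twist1 was listed at 0 in every emMidgut library. Of the 8 repressors of Cdh1, 3 were called lower in exHindgut (0 higher), among them Twist1 (9.78 ± 3.09 TPM in emHindgut and 2.24 ± 2.12 TPM in exHindgut, SD, n = 4; difference -1.91, limma adjusted p = 0.023) and Twist2 (9.85 ± 5.63 and 1.87 ± 1.04 TPM; difference -1.81, limma adjusted p = 0.0284). Twist1 is on both the mesenchyme and the repressor list. The part of mesenchyme cells or of such factors in the Cdh11 difference was not tested.

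**Figure D3:**
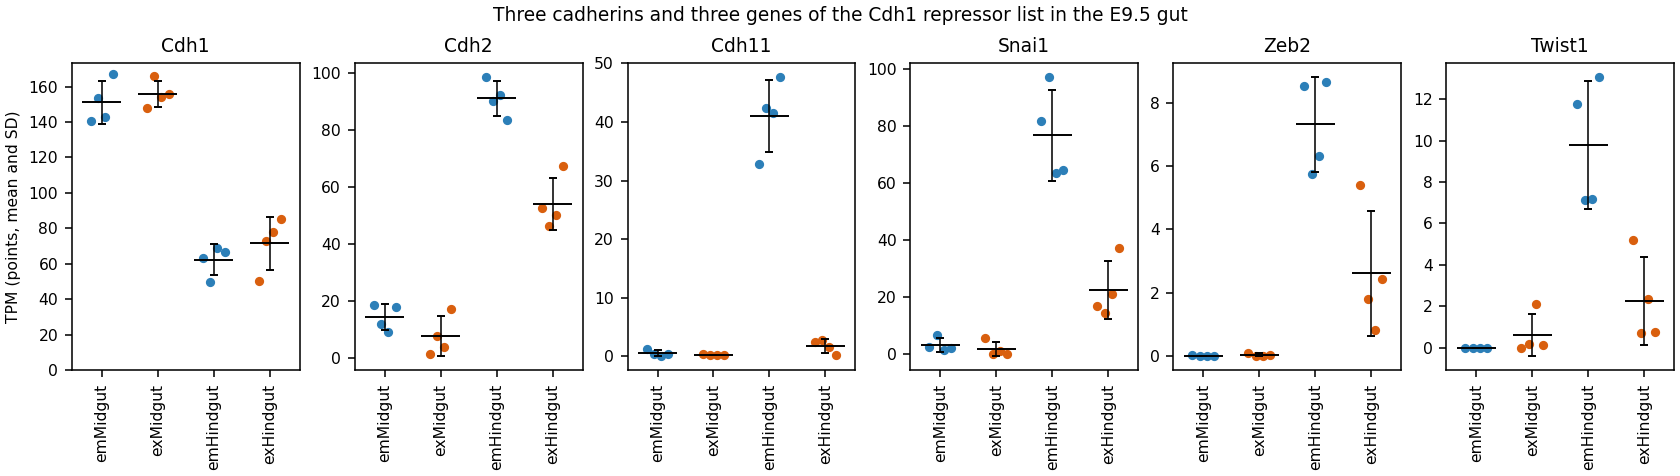
Points are E9.5 gut libraries (blue embryonic, orange extraembryonic), the long bar the mean and the whisker the SD of 4 libraries; the y axes give TPM for Cdh1, Cdh2, Cdh11, Snai1, Zeb2 and Twist1. Cdh1 falls from midgut to hindgut in both origins, Cdh2, Snai1 and Zeb2 rise, and Cdh11 is above 30 TPM in emHindgut alone.

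In the midgut, the single member called by origin was Cdh16, 1 of 6 tested, beside 2.58% of all 12432 genes. It was at 13.4, 3.16, 1.95 and 12.4 TPM in exMidgut and at 0.172, 0, 0.690 and 0.386 TPM in emMidgut. Each exMidgut library was above each emMidgut library, with a difference of 2.44 (SE 0.57, limma adjusted p = 0.0294). The call was lost without any single emMidgut library (adjusted p = 0.0526 to 0.082), without trend (adjusted p = 0.0524), without the filter (adjusted p = 0.0982) and without emMidgut replicates 1 and 3 (2.57, adjusted p = 0.156, limma). Cdh16 passed the filter through its exMidgut libraries alone and was not tested without any one of them. It therefore had to differ, and its call is given as a description. Visceral and yolk sac endoderm markers (9 genes, all above 1 TPM on average in both groups) moved with it, with sums of 7259 to 17360 TPM in exMidgut and 1522 to 3263 TPM in emMidgut, while Cdh16 itself was listed at 0 in YsEndo, where this sum was 64200 to 75290 TPM. Markers of the nephric duct, where this kidney cadherin is known, were similar in both groups (7 genes, summed level 25.9 to 62.9 TPM in exMidgut and 37.1 to 59.4 TPM in emMidgut, with Wnt9b and Emx2 at 0 in both). Cdh6 was higher in the exMidgut mean (39.8 ± 17.1 against 23.1 ± 9.703 TPM, SD, n = 4) with overlapping ranges (difference 0.77, 95% interval -0.03 to 1.58), Cdh2 differed by -1.19 (-2.33 to -0.05, limma adjusted p = 0.277), and Cdh1 by 0.05 (-0.22 to 0.31). Cdh13 in emMidgut was at 3.42 and 1.505 TPM in the replicates with germ cell markers and at 0.165 and 0 TPM in the others; in exMidgut, where Dppa3 was at most 0.463 TPM, it was at 1.80, 0, 6.495 and 0.398 TPM.

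**Figure D4:**
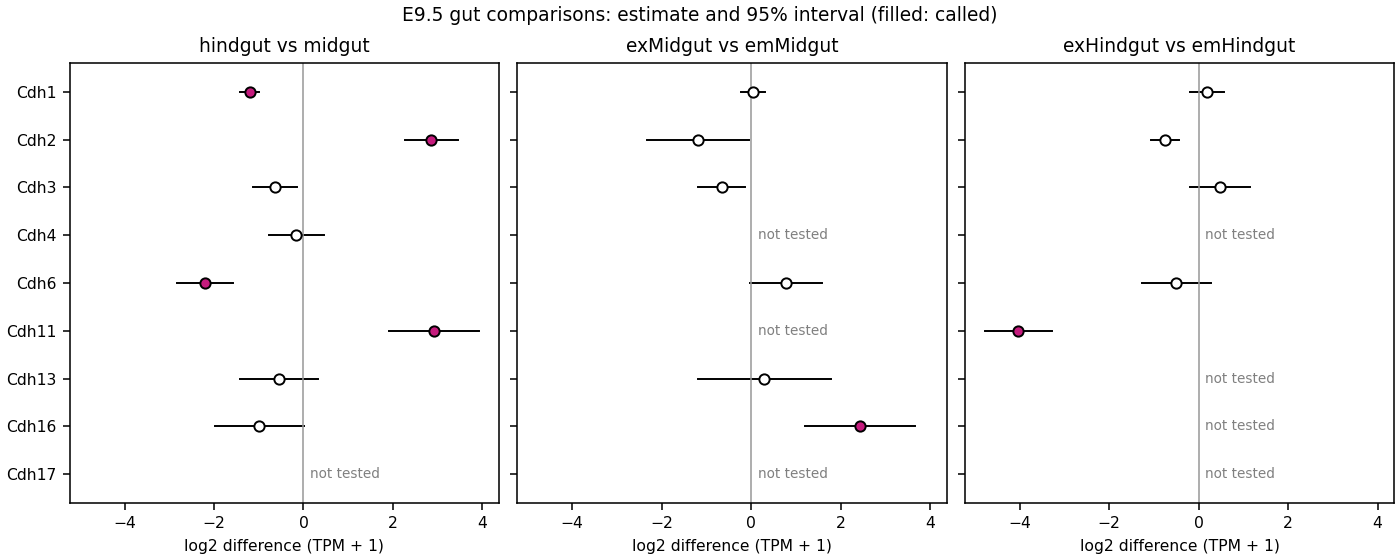
For each gene (y axis) the point is the log2 difference on the TPM + 1 scale (x axis) and the line its 95% interval, for hindgut against midgut (left), exMidgut against emMidgut (middle) and exHindgut against emHindgut (right); filled points were called and genes under the filter are marked as not tested. Cdh1, Cdh2, Cdh6 and Cdh11 are called by region, and 1 gene by origin in each region: Cdh16 in the midgut (2.44) and Cdh11 in the hindgut (-4.03).

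Extraembryonic cells reach the gut or the yolk sac, and in exGut against YsEndo 4 of the 6 members tested were called, all higher in exGut, beside 42.4% of all 12801 genes. The median of all genes was itself shifted by 0.59 here, and that of the members was 2.25. Cdh2 was at 0.0688, 0, 0.0947 and 0.0538 TPM in YsEndo, and differed by 4.16 (SE 0.81, limma adjusted p = 0.000488). Every exGut library held at least 1.27 TPM of Cdh2, which passed the filter through these libraries alone. Like Cdh16 below, it therefore had to differ, and its levels are given as a description. Cdh3 was at 1.27, 1.89, 3.51 and 4.56 TPM in YsEndo and at 15.6 to 46.2 TPM over the 8 exGut libraries (difference 2.94, SE 0.30, limma adjusted p = 1.29e-06). Cdh6 was at 0.583 to 1.47 TPM in YsEndo and at 2.08 to 61.4 TPM in exGut (difference 2.77, SE 0.72, limma adjusted p = 0.00414), a call lost under quantile normalization (1.76, adjusted p = 0.067). Cdh16 was listed at 0 in all 4 YsEndo libraries and passed the filter through exGut libraries alone, so that it had to differ. Its call (limma adjusted p = 0.0474) was lost under 6 of 8 alternatives, with the replicate block among them (adjusted p = 0.0597), and without any of 9 single libraries (all 4 of YsEndo and of exMidgut, and exHindgut replicate 4). Cdh1 differed by 0.08 (95% interval -0.54 to 0.70), with 92.0 to 105 TPM in YsEndo. This average joined a higher and a lower region, at 148 to 166 TPM in exMidgut and 50.5 to 85.0 TPM in exHindgut. Among other cadherin superfamily genes, Cdhr2, a protocadherin of the brush border, was at 68.8 ± 10.1 TPM in YsEndo (SD, n = 4) and 0.886 ± 1.64 TPM in exGut (n = 8). Of 12 junction partners tested 4 were called higher and 0 lower in exGut, among them Arvcf (33.0 ± 11.7 TPM in exGut, n = 8, and 8.36 ± 2.17 TPM in YsEndo, SD, n = 4) and Nectin4 (3.395 ± 2.01 TPM, and listed at 0 in YsEndo).

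From E6.5 to E9.5 both lineages gained Cdh3. In emGut against Epi, 3 of 7 members tested were called, beside 29.7% of all 13053 genes: Cdh3 (12.7 to 59.9 TPM in emGut and 1.92 to 3.06 TPM in Epi; difference 3.10, SE 0.35, limma adjusted p = 6.48e-06), Cdh6 (difference 3.38, SE 0.46, limma adjusted p = 3.02e-05) and, lower, Cdh13 (-1.43, SE 0.47, limma adjusted p = 0.02; adjusted p = 0.0573 to 0.0976 without Epi replicate 2, 3 or 4). Levels of Cdh6 were 0.153 to 0.5015 TPM in Epi and 4.955 to 31.4 TPM in emGut. This gene passed the filter through emGut libraries alone, so that it had to differ and its call is given as a description. Cdh2 differed by 1.25 (adjusted p = 0.135, limma) and was called without emMidgut replicates 1 and 3 (1.71, adjusted p = 0.0371). In exGut against exEndo1, 1 of 7 was called, beside 30.3% of all 12931 genes, and this was Cdh3 (difference 2.18, SE 0.28, limma adjusted p = 1.79e-05). The medians of all genes were 0.30 and 0.13 in these fits. Cdh6 differed by 0.67 in exGut against exEndo1 (95% interval -0.88 to 2.22), and Cdh1 by -0.04 (-0.71 to 0.63) in the embryonic and 0.69 (0.06 to 1.32, limma adjusted p = 0.066) in the extraembryonic lineage. The Cdh1 mean was 99.9 TPM in Epi, 151 TPM in emMidgut and 62.3 TPM in emHindgut, and neither gut range overlapped that of Epi. It was 65.0 TPM in exEndo1, 156 TPM in exMidgut and 71.55 TPM in exHindgut. Among the partner genes, Jup (plakoglobin) rose in emGut (66.8 ± 29.0 TPM, n = 8, against 13.1 ± 5.18 TPM in Epi, SD, n = 4; difference 2.23, limma adjusted p = 0.000202), Adam10, a protease that cuts cadherins, rose by 3.13 (limma adjusted p = 7.22e-08), and Cdh10 fell by 1.36 (limma adjusted p = 0.00705), while Cdh9 was at 2.42 ± 0.54 TPM in Epi and listed at 0 in emGut.

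The difference between extraembryonic and embryonic cells changed from E6.5 to E9.5 for 4 of 8 members tested, beside 34.3% of all 14089 genes. It is the difference of exGut and emGut (both regions averaged) less that of exEndo1 and Epi, without a fold threshold, and the groups at E6.5 are separate tissues. Cdh6 changed by -2.71 (SE 0.45, limma adjusted p = 2.96e-05), from 2.85 at E6.5 to 0.13 at E9.5. Cdh1 changed by 0.73 (SE 0.18, limma adjusted p = 0.00221), from -0.62 to 0.11. Cdh2 changed by -2.06 (SE 0.59, limma adjusted p = 0.00801), from 1.09 to -0.97, and Cdh13 by 2.28 (SE 0.66, limma adjusted p = 0.00799). The exEndo1, Epi and gut libraries are shared with the comparisons above.

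By E13.5 the intestine had taken up Cdh17. It was listed at 0 in all emMidgut, emHindgut and exHindgut libraries, and was at 0, 0, 0.215 and 4.78 TPM in exMidgut. At E13.5 it was at 79.3, 60.4 and 43.1 TPM in emSI, 65.2, 17.5 and 39.3 TPM in emColon, 107, 104 and 38.9 TPM in exSI and 38.4, 27.1 and 0.882 TPM in exColon. In the embryonic lineage (E13.5 against E9.5, region as a covariate) 4 of 7 members tested were called beside 20.4% of all 13017 genes, and in the extraembryonic lineage, where Trp53 genotype changed with stage, 3 of 7 beside 15.2% of all 12945 genes. Cdh17 was among the calls in both, but passed the filter through E13.5 libraries alone in the embryonic fit and through E13.5 libraries and 1 exMidgut library in the extraembryonic fit, so that it had to differ and its levels are given as a description.

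Cdh6 and Cdh3 fell over the same period. Cdh6 was listed at 0, 0 and 0.201 TPM in emColon, at 0.272, 0.234 and 3.58 TPM in emSI, at 0.193, 1.96 and 0 TPM in exColon and at 11.6, 0.785 and 3.77 TPM in exSI. It fell by 3.17 (SE 0.39, limma adjusted p = 3.14e-05) in the embryonic and by 2.40 (SE 0.48, limma adjusted p = 0.002) in the extraembryonic lineage. In the embryonic fit Cdh6 passed the filter through emGut libraries and emSI replicate 3. It therefore had to differ there, and that call is given as a description. Cdh3 fell by 1.72 (SE 0.62, limma adjusted p = 0.0449) and by 1.47 (SE 0.40, limma adjusted p = 0.0157), with wide ranges at E13.5 (27.2, 0 and 22.6 TPM in emColon, and 25.3, 2.26 and 7.58 TPM in exSI); the embryonic call was lost under 8 of 9 alternatives, with emSI replicates 1 and 2 left out among them (-1.22, adjusted p = 0.191), and under 11 of the 14 single-library omissions, among them emSI replicate 2 (-1.335, adjusted p = 0.111) and emColon replicate 2 (-1.11, adjusted p = 0.0888). Cdh2 fell by 3.30 (SE 0.64, limma adjusted p = 0.00144) in the embryonic lineage. Its mean went from 91.1 TPM in emHindgut to 0.9145 TPM in emColon (1.59, 0.767 and 0.389 TPM), without overlap. From emMidgut to emSI it went from 14.4 to 7.42 TPM (12.7, 3.68 and 5.90 TPM), with overlapping ranges. In the extraembryonic lineage Cdh2 differed by -1.56 (95% interval -2.89 to -0.23, limma adjusted p = 0.0839). It was called without exMidgut replicate 1 or exSI replicate 2 (limma adjusted p = 0.0306 to 0.0338). The mean was 54.1 TPM in exHindgut and 7.25 TPM in exColon, without overlap, and 7.545 TPM in exMidgut and 6.92 TPM in exSI, with overlap. The median of all genes was -0.46 in the embryonic and -0.28 in the extraembryonic fit. Cdh1 differed by -0.66 (-1.25 to -0.06) and -0.23 (-0.76 to 0.29), and was not called. These averages joined unlike courses by region. The Cdh1 mean was 151 TPM in emMidgut and 52.4 TPM in emSI, and 156 TPM in exMidgut and 80.5 TPM in exSI, both without overlap. It was 62.3 TPM in emHindgut and 77.3 TPM in emColon, and 71.55 TPM in exHindgut and 103.5 TPM in exColon, both with overlap. With Cdh17, Hnf4a (36.9 ± 18.1 TPM, n = 6, against 4.82 ± 6.01 TPM, SD, n = 8; difference 3.37, limma adjusted p = 0.000179) and the brush border protocadherin Cdhr5 (2.25, limma adjusted p = 0.00205) rose in the embryonic lineage, while Snai1 fell by 3.26 (limma adjusted p = 0.00874).

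Cdh11 at E13.5 was above 1 TPM in 2 libraries, both of emSI. There it was at 30.8, 4.05 and 0.147 TPM, in the order of the mesenchyme marker sums of 458, 130 and 1.93 TPM, with Col1a1 at 56.8 and 17.5 TPM and listed at 0 in the third. In emColon, exColon and exSI it was at most 0.383 TPM. The mesenchyme sum was also high in colon (264 to 425 TPM in emColon and exColon), through Postn, while Col1a1 was at most 0.366 TPM there. Col3a1 reached 10.7 TPM in emColon and was listed at 0 in exColon. In the embryonic lineage Cdh11 differed by -1.61 at E13.5 against E9.5 (limma adjusted p = 0.232). Without emSI replicate 1 the difference was -2.60 (limma adjusted p = 0.0264), a call. Without emSI replicates 1 and 2 it was -3.64, with a single emSI library left (0.147 TPM). These 2 libraries held the only E13.5 values above 1 TPM, so that leaving them out had to lower the E13.5 level.

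**Figure D5:**
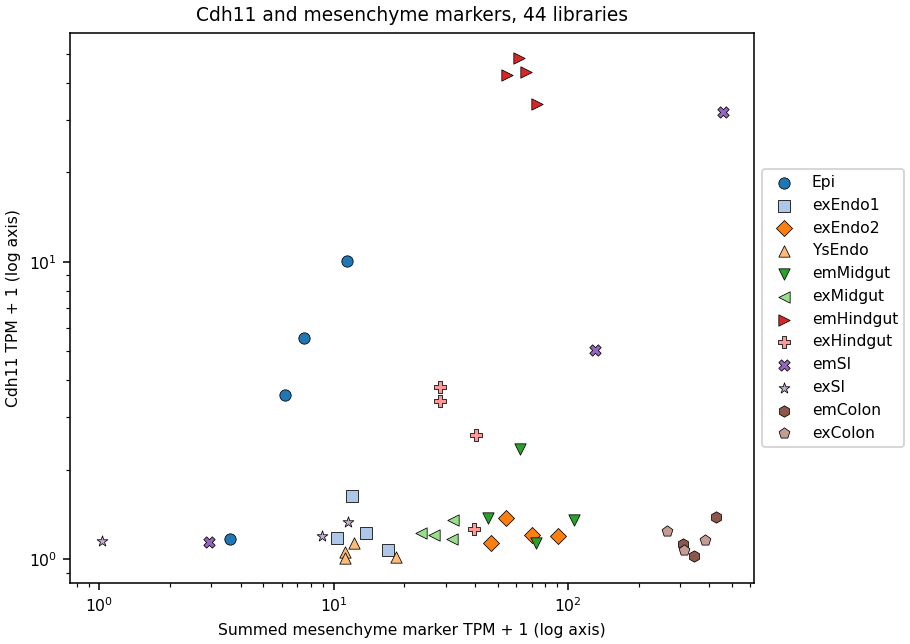
Each of the 44 libraries is a point, with the summed TPM of 10 mesenchyme markers plus 1 on the x axis and Cdh11 TPM plus 1 on the y axis (both logarithmic), and a marker shape for each group. The 4 emHindgut libraries (32.8 to 47.6 TPM) and emSI replicate 1 (30.8 TPM) have the most Cdh11, and the colon libraries have high sums with Cdh11 of at most 0.383 TPM.

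Within E13.5, limma called no member. By origin 0 of 6 tested were called beside 0.625% of all 12483 genes, and 0 had an unadjusted p under 0.05. In the interaction of origin and organ it was 0 of 6 beside 0.016%, and in colon against small intestine 0 of 6 beside 1.3%, where 2 had an unadjusted p under 0.05 (Cdh6 and Cdh17). With n = 3 the intervals are wide: by origin Cdh1 differed by 0.54 (-0.01 to 1.08), Cdh2 by 0.77 (-0.55 to 2.08), Cdh6 by 0.91 (-0.30 to 2.12) and Cdh17 by -0.58 (-1.92 to 0.75). In colon against small intestine Cdh17 differed by -1.65 (-2.99 to -0.31, limma adjusted p = 0.299). Both Cdh17 estimates include exColon replicate 3, at 0.882 TPM against 38.4 and 27.1 TPM in exColon replicates 1 and 2. The change of the origin difference from E9.5 to E13.5 gave 0 of 9 calls by limma (2 with an unadjusted p under 0.05, Cdh2 and Cdh16), beside 0.705% of all 14038 genes. For Cdh11 this change was 1.035 (limma adjusted p = 0.51). It was 2.19 without emSI replicates 1 and 2, the only E13.5 libraries with Cdh11 above 1 TPM, and a single emSI library was then left.

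Over the 44 libraries, the genes whose levels ran most like those of each member were named by the Pearson correlation of log2(TPM + 1) among 17140 genes, as a description over libraries that share stages and tissues. For Cdh1 these were Adcy8, Hif1a and Csf1r (r = 0.76, 0.75 and 0.74), and for Cdh2 Rspo3, Pcdh7 and Jag1 (0.86, 0.85 and 0.83). Cdh3 ran with Cldn9, Capn6 and Arg1 (0.87, 0.85 and 0.85), and Cdh6 with Rasgrp3, 4930556M19Rik and Dvl3 (0.81, 0.79 and 0.79). For Cdh11 they were Chst2, Kcnip3 and Inka1 (0.89, 0.89 and 0.87), for Cdh16 Lst1, Rtl4 and Gm6288 (0.75, 0.75 and 0.73) and for Cdh17 Kcne3, Ndufa2 and Tff1 (0.96, 0.94 and 0.92).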

How the data were processed

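RNA-seq libraries were made by the low-input Smart-RRBS protocol from poly(A) RNA. Per the labels and the study's methods, adapter trimming (cutadapt 4.1) and alignment (STAR 2.7.9a, mm10 plus the GFP and mCherry sequences) were done by the authors, who then quantified GENCODE VM23 genes with StringTie 2.0.6 in estimation mode. The deposited values are TPM, FPKM and coverage per gene, 1 table per library (44). No read counts were used, so the sampling error of a single value is unknown and precision comes from the spread between libraries; low genes are the least certain.

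TPM was summed per gene identifier. Gene types and positions came from GENCODE vM21 (32235 of 32287 identifiers matched). Values were transformed as log2(TPM + 1), which understates changes of low genes. Two-sided tests were made in R 4.3.3 by limma 3.58.1, with a mean-variance trend in eBayes and 1 fit per comparison, over protein-coding genes above 1 TPM in at least 4 libraries (3 where E13.5 alone entered) and not on chromosome Y, with Benjamini-Hochberg adjustment over all genes of the comparison. Calls required both an absolute log2 difference above 1 and an adjusted p below 0.05; interactions needed the adjusted p alone. The replicate block used statmod 1.5.0. Tables were made with Python 3.11.15, NumPy 2.4.6 and pandas 2.3.3. The fits were tested on simulated data.

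Genes named were the 9 members, up to 2 called genes per direction with the largest changes from each partner list and comparison, and the 3 genes most correlated with each member that reached 5 TPM in a group mean. Others (Ctnnb1, Col1a1, Postn, Dppa3, Grhl1 and single markers) were named after their values were seen. The members and lists were chosen with earlier results of these data known. Deviations of same-numbered libraries from their group means were all positively correlated in exEndo1 and exEndo2 at E6.5 (0.167 to 0.402 in 4 pairs). In the other groups compared these correlations ran from -0.167 to 0.196. Libraries of unlike number were not compared, so that these values do not establish which samples share an embryo. Tried in turn were no filter, a pseudocount of 0.1, quantile normalization, median-ratio rescaling, FPKM, no trend, all gene types, a replicate block, other covariates and leaving out each library; leaving out the emMidgut and emSI libraries with other cell types was added after seeing the data. Where the labels do not name separate embryos, p-values measure the spread between these samples, which may be technical.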

Additional observations from a re-analysis of the deposited data

Results flagged for a closer look

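In 65 sets of 4 libraries (1 gene in 1 group), 10 had 1 library set apart from the other 3 by Dixon's criterion on the log2(TPM + 1) scale; chance gives about 1 in 20, or 3.25. The E13.5 groups, with n = 3, were not screened in this way. Most libraries set apart were of low level. Cdh17 was at 4.78 TPM in exMidgut replicate 4 against 0 to 0.215 TPM in the others, Cdh16 at 4.14 TPM in exHindgut replicate 4 against 0 to 0.144 TPM, and Cdh6 at 19.2 TPM in exEndo2 replicate 2 against 6.68 to 7.88 TPM. Cdh4 was low at 0.621 TPM in Epi replicate 1 and 0.767 TPM in exEndo1 replicate 2, and high at 1.64 TPM in emHindgut replicate 1. Cdh6 was at 0.502 TPM in Epi replicate 4, Cdh13 at 0.0171 TPM in exEndo1 replicate 3 and 0.0517 TPM in emHindgut replicate 3, and Cdh16 at 0.148 TPM in exEndo2 replicate 1.

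A difference between groups was tested and called for 5 results. The origin difference of Cdh11 was more negative in the E9.5 hindgut than in the midgut (-3.76 on the log2 scale). From E6.5 to E9.5 the origin difference changed by 0.73 for Cdh1, -2.06 for Cdh2, -2.71 for Cdh6 and 2.28 for Cdh13.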

How the results depend on the processing

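Counts of members called that moved by more than 1.5 times were few. In exEndo1 against Epi (1 called) the count was 2 with a pseudocount of 0.1 and 3 without the filter. In exGut against emGut (0) it was 1 with region as a covariate. In exMidgut against emMidgut (1) it was 0 without the filter, without trend, and without emMidgut replicates 1 and 3. In the interaction of origin and region (1) it was 0 with a pseudocount of 0.1. In exGut against YsEndo (4) it was 2 under quantile normalization, Cdh6 and Cdh16 being lost, and in exGut against exEndo1 (1) it was 2 under quantile normalization or a pseudocount of 0.1. In the change of the origin difference to E13.5 (0), the fit without emSI replicates 1 and 2 left a single emSI library, and its member calls are not counted here. No result changed direction with a call under any alternative.

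Leaving out 1 library at a time gave 0 to 1 calls in exEndo1 against Epi, where 0 came from exEndo1 replicate 1, 2 or 4, without which Cdh6 was under the filter; without replicate 3 the single call was Cdh2 (adjusted p = 0.00928). It gave 0 in exMidgut against emMidgut for every library, and 1 to 2 in exGut against exEndo1, where 2 came without exHindgut replicate 1, 2 or 3 (Cdh16 added). Elsewhere it gave 4 to 5 in hindgut against midgut, 3 to 5 in exGut against YsEndo, 2 to 3 in emGut against Epi, 3 to 4 in each lineage from E9.5 to E13.5 and 4 to 5 in the change of the origin difference to E9.5. In the remaining comparisons the count did not move.

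With the replicate number as a block, 3 members rather than 4 were called in exGut against YsEndo, Cdh16 being lost (adjusted p = 0.0597), and the block changed no other call of a member in the 11 comparisons within a stage. It was not run for the 6 comparisons across stages. Outside exEndo1 and exEndo2, the correlations of same-numbered libraries ran from -0.167 to 0.196 over the group pairs, with no unlike-numbered pairs as a baseline.

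Calls over all genes depended on the scaling where the median of all genes was shifted. The share of calls that were higher went from 76.3% to 49.7% under quantile normalization and 54.8% under median-ratio rescaling in exGut against YsEndo, from 75.4% to 48.6% and 57.0% in emGut against Epi, from 14.4% to 52.7% and 31.0% in the embryonic lineage to E13.5 (26.1% with FPKM, and 1536 calls rather than 2654 under quantile normalization), from 23.2% to 51.8% and 34.9% in the extraembryonic lineage (33.8% with FPKM), from 39.4% to 53.6% and 50.4% in the change of the origin difference to E9.5, from 60.6% to 43.4% and 47.5% in that to E13.5, and in exGut against exEndo1 from 62.1% to 49.4% under quantile normalization. Region as a covariate gave 587 calls rather than 316 in exGut against emGut. Without the filter there were 173 rather than 321 in the midgut, 223 rather than 378 in the hindgut, 8 rather than 13 in the interaction of origin and region, 14 rather than 2 in that of origin and organ, and 81 rather than 162 in colon against small intestine. Without trend the interactions gave 8 and 6 calls, and with a pseudocount of 0.1 both gave 0. Without emMidgut replicates 1 and 3 there were 118 calls in the midgut and 5 in the interaction of origin and region. Without emSI replicates 1 and 2 there were 48 rather than 78 by origin at E13.5, 98 in colon against small intestine, 0 in the interaction of origin and organ and 48 rather than 99 in the change of the origin difference to E13.5. Leaving out 1 library gave 3 to 19 calls in the interaction of origin and region (under 8 without any emHindgut or exHindgut library or emMidgut replicate 2, 3 or 4), 0 to 3 in that of origin and organ (0 without emSI replicate 1 or 2, exColon replicate 1 or exSI replicate 2, and 1 without any emColon library or replicate 3 of another group), and 74 to 203 in the change of the origin difference to E13.5 (203 without emColon replicate 1, 179 without emColon replicate 3, 149 without exColon replicate 2). It gave 209 in the midgut without emMidgut replicate 4 and 237 in the hindgut without emHindgut replicate 1. The cause of these changes was not tested, and sampling depth per value is unknown, so low members (Cdh4, Cdh13, Cdh16) are the least certain.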
